A study of Mus musculus with 15 samples.

Results

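The departure of the heterozygote from the additive midpoint was measured in RNA-Seq data from mouse embryos that carry the K228E mutation in *Tbr1*. For each gene, the departure is the mean log2 value of the heterozygous embryos minus the average of the WT mean and the homozygous mean, with log2 taken of the deposited normalized read count plus 1. A departure of 0 means that the heterozygote lay midway between both homozygous genotypes. It was computed for the 16507 genes with a mean normalized read count of at least 5, out of 19475 deposited genes. The genotypes were WT, *Tbr1*+/K228E (abbreviated HET below), and *Tbr1*K228E/K228E (abbreviated HOM), with 5 embryos of each at E16.5. Each genotype held 3 females and 2 males on a C57BL/6J background. HOM embryos are knock-in mice with both alleles mutated, although their columns bear a label used for knockouts, and the mutant allele retains loxP sequence after removal of the neomycin cassette by protamine-Cre, which is active in the male germ line. The tissue is called forebrain in the text of the study and whole brain in the series description. Embryos are separate animals, but litters are not given in the sources used here.

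TBR1 is a T-box transcription factor of early-born glutamatergic neurons of the cortex, with high levels in layer 6, the subplate, and Cajal-Retzius cells. It binds DNA through its T-box domain and can activate genes such as *Reln* and repress others such as *Fezf2*. In a dose series of WT, heterozygous, and homozygous animals, a gene can follow the number of mutant alleles (additive), change only when both alleles are mutated (recessive), change fully with a mutated allele on either chromosome (dominant), or take a value in the heterozygote that neither homozygous genotype shows.

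The mutation replaces lysine 228 of TBR1 with glutamate. Codon 228 lies in exon 1 of *Tbr1* at chr2:61805389-61805391 on the plus strand of GRCm38. The reference coding sequence around it is shown because every comparison turns on this codon, which is in capitals with 30 bases of context on each side:
Tbr1 codon 228: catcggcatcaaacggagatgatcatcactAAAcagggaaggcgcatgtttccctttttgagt

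*Tbr1* itself followed allele number. Its normalized read counts were 3517, 4122, 4871, 2097, and 3079 in the WT embryos, 4738, 8543, 6337, 6743, and 4985 in the HET embryos, and 11530, 7148, 16015, 10671, and 11467 in the HOM embryos. The lowest HET embryo lay below the highest WT embryo and the highest HET embryo lay above the lowest HOM embryo, whereas WT and HOM embryos did not overlap. On the log2 scale the HET mean differed from the midpoint by 0.00 (standard error 0.20). The position of the heterozygote, which is the HET minus WT difference divided by the HOM minus WT difference and is 0 at the WT mean, 0.5 at the midpoint, and 1 at the HOM mean, was 0.50, with a 95% Fieller interval from 0.24 to 0.76. This interval holds the additive value and neither of the other values. The result depends on the scale, since on untransformed counts the HET mean of 6269 lay below the arithmetic midpoint of 7452 and the position was 0.35.

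Across all genes, no departure from the midpoint passed correction. With limma and Benjamini-Hochberg adjustment, 0 of 16507 genes (0%) had an adjusted p under 0.05, and the smallest adjusted p was 0.939, for *Fgf10*. Without adjustment, 376 genes (2.28%) had a p under 0.05, of which 165 lay above the midpoint (1%) and 211 below it (1.28%). If no gene departed, a share of about 0.05 of the genes would fall under this threshold. The share found was smaller, so that the 376 genes are not a surplus. The median standard error of the departure was 0.0806 on the log2 scale. Departures of this size were therefore not resolved for a typical gene. Departures several times their standard error also did not pass adjustment, such as 0.39 (standard error 0.10) for *Wnt7b*. In the same fit 21 genes (0.127%) passed between HOM and WT embryos, 10 of them higher (0.0606%) and 11 lower (0.0666%) in HOM embryos. Counted the same way, 13 (0.0788%) passed between HET and HOM embryos (3.3% at an unadjusted p under 0.05), and none (0%) passed between HET and WT embryos, where 295 genes (1.79%) had an unadjusted p under 0.05. Both unadjusted shares were likewise below 0.05 of the genes.

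The 21 genes that differed between HOM and WT embryos were then sorted by the position of the heterozygote. With equal group sizes the departure is orthogonal to the HOM minus WT difference, so that choosing genes by the latter does not set the direction of the former, although both share the variance estimate of the gene. Positions from -0.25 to under 0.25 were called recessive, from 0.25 to under 0.75 additive, and from 0.75 up to the same distance beyond 1 dominant. By this rule 15 genes took a recessive position, 6 an additive position, and none a dominant position or a position beyond both homozygous genotypes. The median position was 0.23, and the positions ran from -0.15 for *Rbm14* to 0.60 for *Lypd6*. Without any overlap between embryos, HOM and WT separated in 0.594%, HET and HOM in 0.878%, and HET and WT in 0.26% of all genes. Of the 21 genes, HET and HOM embryos separated in 18, and HET and WT embryos in 2 (*Reln* and *Lypd6*). The same HOM embryos had entered the choice of the 21 genes, so that the count of 18 is not independent of it. The HET mean lay on the WT side of the midpoint for 18 of the 21 genes, beside 9028 of all 16507 genes, and for *Tbr1*, *Gcg*, and *Lypd6* it lay on the HOM side. All 21 intervals left out the dominant value of 1. For 11 genes the interval also left out the midpoint and held 0, and for 5 genes it left out 0 and held the midpoint. At an unadjusted p, 11 of the 21 departures were under 0.05 and all 11 pointed to the WT side, beside 2.28% of all genes in either direction, and none of the 21 passed adjustment over all genes. All 5 HET embryos were on the WT side of the midpoint for 12 of the 21 genes, whereas over all genes the 5 HET embryos lay together above the midpoint in 5.19% and together below it in 4.09%.

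**Figure D1:**
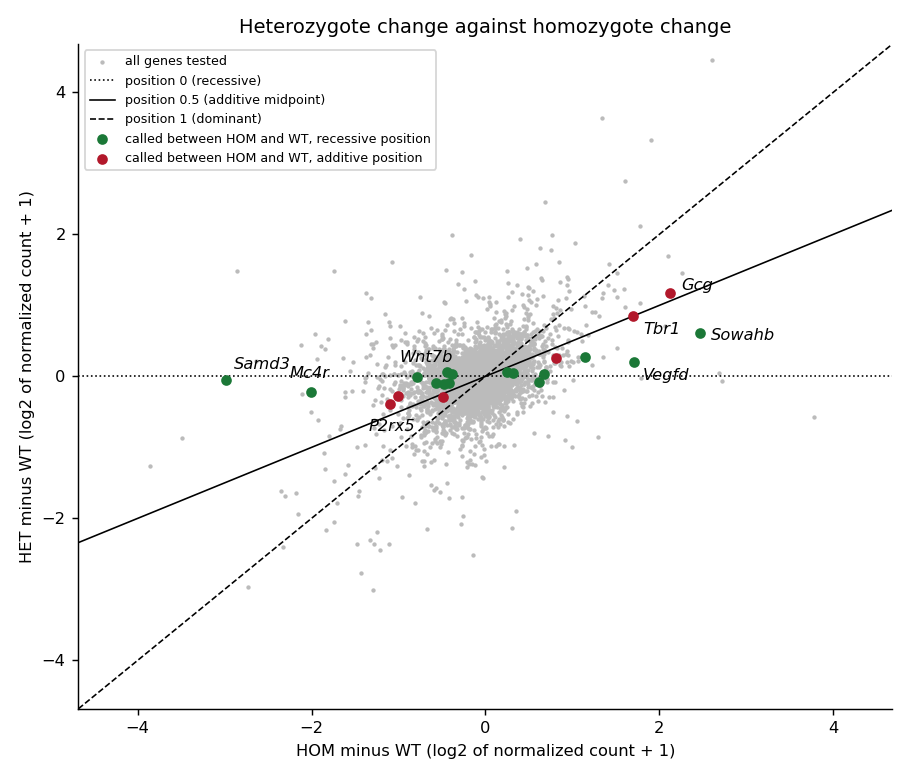
HOM minus WT difference (x axis) against HET minus WT difference (y axis), both as log2 of normalized read count plus 1, for the 16507 genes tested (gray) and the 21 genes called between HOM and WT embryos (15 recessive in green, 6 additive in red). Lines mark positions 0, 0.5, and 1, and most called genes lie between the dotted and the solid line, with *Tbr1* on the solid line.

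**Figure D2:**
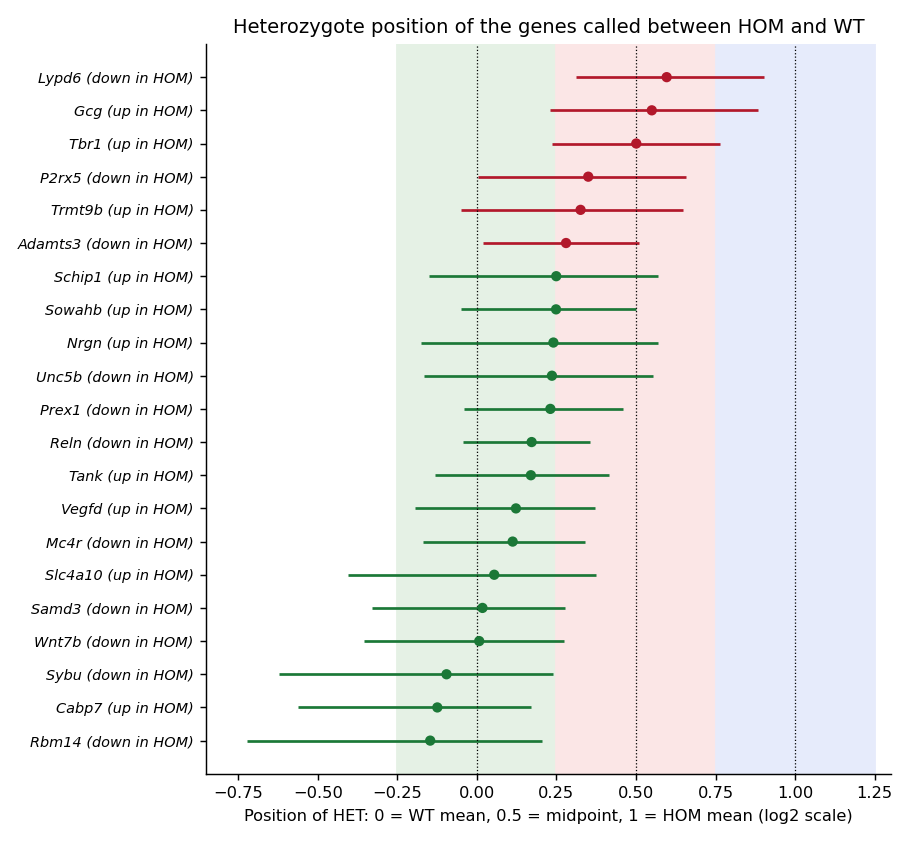
Position of the heterozygote (points) with its 95% Fieller interval (lines) for the 21 genes called between HOM and WT embryos, where 0 is the WT mean, 0.5 the midpoint, and 1 the HOM mean. Shading marks the recessive, additive, and dominant ranges, and no interval reaches 1.

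Among the genes in a recessive position were secreted ligands of cortical development. *Reln* encodes reelin, the extracellular glycoprotein by which Cajal-Retzius cells guide neuronal migration. Its normalized read counts were 10821, 10551, 10726, 10831, and 10906 in WT embryos, 9189, 10206, 10478, 10082, and 10432 in HET embryos, and 6444, 8400, 7161, 7318, and 7213 in HOM embryos. The genotypes did not overlap in any pairing, and all 5 HET embryos lay nearer to the WT mean than to the HOM mean on the log2 scale. The departure was 0.19 (standard error 0.05), and the position was 0.17 (interval -0.04 to 0.36). The difference between HET and WT embryos did not pass adjustment over all genes (adjusted p = 0.999, limma).

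*Wnt7b* encodes a Wnt ligand made by cortical neurons. The embryos had normalized read counts of 2688, 2820, 3205, 2083, and 2584 in WT, 2129, 2731, 2648, 3135, and 2656 in HET, and 1669, 1538, 1684, 1353, and 1461 in HOM embryos. All HET values lay within the WT range, and every HET embryo exceeded every HOM embryo. The departure was 0.39 (standard error 0.10), with a position of 0.01 (interval -0.35 to 0.27). *Vegfd*, which encodes a growth factor of lymphatic and blood vessels, went in the other direction and was 19.3 ± 2.34 (SD, n = 5) in WT, 23.7 ± 9.22 in HET, and 65.9 ± 12.0 in HOM embryos. The position of *Vegfd* was 0.12, and the HET replicates 1 and 2, at 30.9 and 36.1, stood above the highest WT value of 21.7.

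*Samd3*, which encodes a protein with a sterile alpha motif, had the largest difference between HOM and WT embryos of the 21 genes. Its normalized read counts were 74.1, 90.3, 123, 66.3, and 76.2 in WT, 58.0, 122, 101, 78.3, and 61.2 in HET, and 18.9, 2.10, 12.0, 9.53, and 16.2 in HOM embryos. HET and WT embryos overlapped over most of their ranges, and no HOM embryo came near either. The log2 difference between HOM and WT embryos was -2.98 (adjusted p = 0.00437, limma), and the HET position was 0.02 (interval -0.33 to 0.28). *Mc4r*, a melanocortin receptor gene of hypothalamic neurons, was 221 ± 78.7 (SD, n = 5) in WT, 180 ± 24.3 in HET, and 53.4 ± 15.5 in HOM embryos, a position of 0.11. All 5 HET values of *Mc4r*, from 158 to 215, lay inside the WT range of 137 to 310. That range was split, with 284, 231, and 310 in the WT females and 146 and 137 in the WT males. Every HET value lay in the gap between them, and on untransformed counts the position was 0.24.

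Another 6 genes had an interval that left out the midpoint and held 0. *Sybu*, which links kinesin motors to axonal cargo, was 3241 ± 264 (SD, n = 5) in WT, 3324 ± 248 in HET, and 2475 ± 203 in HOM embryos. *Cabp7*, which encodes a calcium-binding protein, rose in HOM embryos, with 181 to 231 in WT, 174 to 195 in HET, and 262 to 340 in HOM embryos. *Prex1*, an activator of the GTPase Rac, had 3510 ± 96.9 (SD, n = 5) in HET embryos, between 3799 ± 382 in WT and 2732 ± 145 in HOM embryos, at a position of 0.23. *Rbm14*, which encodes an RNA-binding transcriptional coactivator, was 2370 ± 290 (SD, n = 5) in HET embryos, above both 2259 ± 213 in WT and 1651 ± 35.8 in HOM embryos. *Slc4a10*, a bicarbonate transporter gene, and *Tank*, an adaptor gene of innate immune signaling, were at positions 0.05 and 0.17. The remaining 4 genes in a recessive position were *Unc5b*, *Schip1*, *Nrgn*, and *Sowahb*. Their positions lay between 0.24 and 0.25, next to the boundary, and their intervals also held the midpoint, so that recessive and additive could not be told apart for them.

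The genes in an additive position besides *Tbr1* were *Gcg*, *Lypd6*, *P2rx5*, *Adamts3*, and *Trmt9b*. *Gcg*, which encodes proglucagon, had 13.7, 21.2, 24.8, 9.05, and 8.09 normalized reads in WT, 17.0, 51.5, 43.2, 39.5, and 25.0 in HET, and 68.4, 38.3, 90.8, 70.1, and 67.5 in HOM embryos. HET values bridged both homozygous genotypes, and the position was 0.55 (interval 0.23 to 0.88). *Lypd6*, which encodes a membrane-anchored regulator of Wnt signaling, had 542, 613, 644, 584, and 543 in WT, 470, 508, 480, 484, and 446 in HET, and 389, 398, 487, 385, and 430 in HOM embryos. All HET embryos were below all WT embryos for *Lypd6*, 1 HOM embryo fell within the HET range, and the position of 0.60 (interval 0.31 to 0.90) was the highest of the 21. *P2rx5*, an ATP-gated ion channel gene, took a position of 0.35 (interval 0.002 to 0.66). *Adamts3*, whose product cleaves reelin, took a position of 0.28 (interval 0.02 to 0.51), with 1669 ± 336 (SD, n = 5) in WT, 1355 ± 156 in HET, and 817 ± 87.9 in HOM embryos. The intervals of *P2rx5* and *Adamts3* left out 0 by a small margin, and the interval of *Trmt9b*, of the tRNA methyltransferase family, held both 0 and the midpoint.

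**Figure D3:**
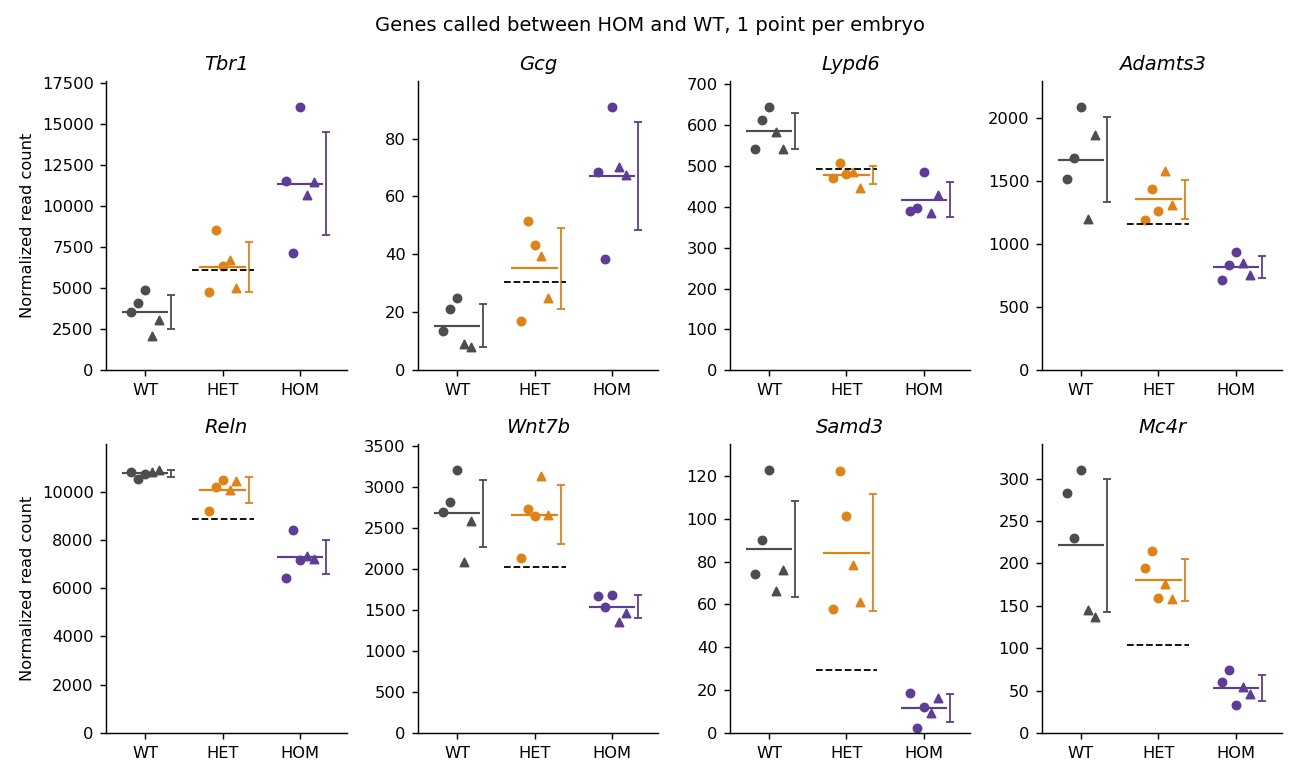
Normalized read count (y axis) of 8 genes called between HOM and WT embryos by genotype, with circles for females, triangles for males, lines for the mean, and bars for the SD of 5 embryos. The dashed line is the midpoint on the log2 scale, which the HET embryos straddle for *Tbr1* (midpoint 6120) and *Gcg* (midpoint 30.4) and exceed in every embryo for *Reln*, *Wnt7b*, *Samd3*, and *Mc4r*.

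*Tbr1* has neighbors on chromosome 2 among the 21 genes, and these did not share a position. *Tank* (chr2:61578585-61654171) ends 149 kb before *Tbr1* (chr2:61802930-61814114), *Slc4a10* (chr2:62046462-62326730) starts 232 kb after it, and *Gcg* (chr2:62474530-62483650) lies 660 kb after it. All 3 were higher in HOM than in WT embryos. *Gcg* was near the midpoint like *Tbr1*, with a position of 0.55, whereas *Tank* and *Slc4a10* were near WT, with 587 ± 16.2 (SD, n = 5) against 566 ± 14.3 for *Tank* and 1744 ± 71.3 against 1725 ± 337 for *Slc4a10*, given as HET against WT embryos. Whether these positions differ from one another was not tested.

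A T-box site was searched in the promoters of the called genes, since TBR1 binds such sites. The windows ran from 250 bases before to 50 bases after each RefSeq transcript start on GRCm38.p6, and 16 of the 21 genes had a window. The site AGGTGTGA, searched on both strands, was in 2 of the 22 windows of these genes (9.09%), those of *Samd3* and *Schip1*, and in 1.28% of the 32851 windows of all genes. The core GGTGTG, which lies within the longer site and was also searched on both strands, was in 7 of the 22 windows (31.8%), of 6 genes, and in 19% of all windows. The windows below are those with the full site, and that of *Reln* as the example of a core alone, which *Cabp7*, *Nrgn*, and *Slc4a10* also hold. *Reln* was chosen because TBR1 is known to activate it, and the match is in capitals. They are written in the direction of transcription and cover chr10:26229457-26229756 (plus strand) for *Samd3*, chr3:68064552-68064851 (plus strand) for *Schip1*, and chr5:22344656-22344955 (minus strand) for *Reln*:
Samd3: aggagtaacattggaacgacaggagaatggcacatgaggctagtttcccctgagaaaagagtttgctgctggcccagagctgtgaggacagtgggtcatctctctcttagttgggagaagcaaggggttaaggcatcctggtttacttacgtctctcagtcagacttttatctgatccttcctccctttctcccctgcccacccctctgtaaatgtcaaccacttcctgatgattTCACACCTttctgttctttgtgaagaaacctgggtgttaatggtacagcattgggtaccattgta
Schip1: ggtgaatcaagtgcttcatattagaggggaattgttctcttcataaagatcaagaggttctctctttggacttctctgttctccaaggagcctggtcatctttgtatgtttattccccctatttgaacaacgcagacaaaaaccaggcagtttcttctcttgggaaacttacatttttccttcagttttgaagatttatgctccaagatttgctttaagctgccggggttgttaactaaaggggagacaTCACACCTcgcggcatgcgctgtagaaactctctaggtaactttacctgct
Reln: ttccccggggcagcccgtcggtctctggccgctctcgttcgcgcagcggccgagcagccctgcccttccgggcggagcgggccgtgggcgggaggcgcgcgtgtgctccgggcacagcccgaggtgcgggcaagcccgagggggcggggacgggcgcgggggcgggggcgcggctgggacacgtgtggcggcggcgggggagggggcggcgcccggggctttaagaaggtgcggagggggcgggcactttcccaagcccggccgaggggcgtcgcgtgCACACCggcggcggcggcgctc
The core within the full site begins at position -14 relative to the transcript start in *Samd3* and at the start itself in *Schip1*. *Reln* holds the core at position 28. *Samd3* fell and *Schip1* rose in HOM embryos, so that the genes with the full site did not move in the same direction. A match is a description of the letters in these windows.

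The pattern in the wider group of genes with an unadjusted p under 0.05 between HOM and WT embryos was more even. Of these 534 genes (3.23% of those tested), 208 (39.0%) took a recessive, 232 (43.4%) an additive, and 64 (12.0%) a dominant position, and 30 lay beyond both homozygous genotypes. The median position was 0.31, and 378 of the 534 had the HET mean on the WT side of the midpoint, beside 9028 of all 16507 genes. Departures with an unadjusted p under 0.05 numbered 64 of 534, of which 56 pointed to the WT side and 8 to the HOM side, beside 233 and 143 among all genes. An interval that singled out the recessive value was found for 37 genes, the additive value for 5 genes, and the dominant value for 3 genes. The 534 genes include the 21 called genes, and in the other 513 these counts were 26, 0, and 3. To single out the additive value, an interval must leave out both 0 and 1. For the recessive or dominant value it needs to leave out only the midpoint and the value beyond it. The counts therefore cannot decide which position was more frequent.

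The 13 genes called between HET and HOM embryos included 11 of the 21 genes above, together with *Fgf10* and *Glt28d2*. Both comparisons use the same HOM embryos, so that the 11 shared genes are not independent of the choice of the 21. The HET minus HOM difference is not orthogonal to the departure, and *Fgf10* and *Glt28d2* are therefore a description. *Fgf10*, which encodes a fibroblast growth factor that acts in the change of early cortical progenitors to radial glia, had the smallest p of the departure of all genes. Normalized read counts of *Fgf10* were 118, 126, 108, 152, and 96.2 in WT, 116, 101, 90.5, 88.0, and 89.8 in HET, and 197, 173, 266, 219, and 178 in HOM embryos. HOM embryos exceeded all others, and 3 of 5 HET embryos lay below every WT embryo. The departure was -0.68 (standard error 0.12) and the position -0.38 (interval -1.09 to 0.01), with an adjusted p of 0.0502 between HOM and WT embryos by limma. *Glt28d2*, a gene with low counts that encodes a glycosyltransferase-domain protein, was 24.3, 33.3, 30.6, 30.3, and 31.7 in HET embryos, against means of 21.9 ± 7.26 (SD, n = 5) in WT and 10.2 ± 2.04 in HOM embryos. The departure of *Glt28d2* was 1.00 (standard error 0.22), and WT replicate 4, at 9.44, lay within the HOM range of 7.53 to 12.4.

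Genes whose HET embryos stood apart from both homozygous genotypes were few. All 5 HET values lay outside all 10 other values for 3 genes (0.0182%), which were *Lpar2* above (0.00606%) and *Adra1d* and *Armcx5* below (0.0121%). With genotype labels exchanged at random, the probability of this separation in a given direction is 0.000333 per gene. The share found was smaller in both directions, so that these genes are not a surplus. *Lpar2*, a receptor gene for lysophosphatidic acid, had 605, 643, 576, 614, and 617 in WT, 681, 689, 678, 662, and 699 in HET, and 634, 644, 659, 659, and 634 in HOM embryos. The gap between the lowest HET and the highest HOM embryo was small beside the spread of HET values, and the departure was 0.12 (standard error 0.04). *Armcx5*, an X-linked gene with armadillo repeats, had 319 to 325 in HET, 327 to 365 in WT, and 339 to 367 in HOM embryos, with a departure of -0.11 (standard error 0.05). *Adra1d*, which encodes the alpha-1D adrenergic receptor, had low counts of 2.81 to 7.26 in HET, 7.48 to 15.7 in WT, and 7.65 to 21.2 in HOM embryos, with a departure of -1.02 (standard error 0.28). These genes were chosen for this separation, which is therefore a description, and none passed adjustment over all genes with limma (adjusted p = 0.993 for each).

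*Spats2l* was the sole gene whose departure passed adjustment when a single embryo was left out. Its normalized read counts were 1462, 1128, 769, 1440, and 1371 in WT, 946, 806, 916, 896, and 880 in HET, and 1241, 1327, 1210, 1541, and 1301 in HOM embryos. Every HET embryo lay below every WT and HOM embryo except WT replicate 3, which was the lowest of all 15. The departure was -0.50 (standard error 0.12), with an adjusted p of 0.993 by limma with all embryos. Without WT replicate 3 the departure was -0.58 with an adjusted p of 0.0120 by limma. WT replicate 3 had a mean log2 value of 5.62 over 13 meningeal genes, against 9.05 to 10.3 in the other WT embryos, 8.20 to 10.1 in HET embryos, and 5.86 to 10.3 in HOM embryos. HOM replicates 3 and 4 also had low means, 6.12 and 5.86, with *Spats2l* counts of 1210 and 1541. The part of the meningeal genes in the *Spats2l* values was not tested. In bulk tissue, fewer cells of a type and less RNA per cell cannot be told apart.

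Other genes with small p-values of the departure included some with similar HOM and WT levels. *Ica1*, which encodes a protein of secretory vesicles, was 951 ± 84.2 (SD, n = 5) in WT, 811 ± 63.5 in HET, and 1029 ± 89.2 in HOM embryos, a departure of -0.29. *Fndc1*, with fibronectin domains, was 328 ± 31.2 (SD, n = 5) in WT, 227 ± 69.1 in HET, and 301 ± 25.4 in HOM embryos. The HET values of *Fndc1* were split, with 330 and 266 in replicates 1 and 3 and 174 to 185 in the others. For *Bcl6*, a transcriptional repressor gene that promotes neurogenesis, the departure was 0.73 (standard error 0.19) with a position of -0.20, and for *Flrt3*, an adhesion ligand of latrophilins, it was -0.20 (standard error 0.06). For *Tcp11* the departure was -0.89 (standard error 0.24), and HOM replicate 1, at 33.8, lay far below the other HOM embryos, at 80.4 to 84.8.

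**Figure D4:**
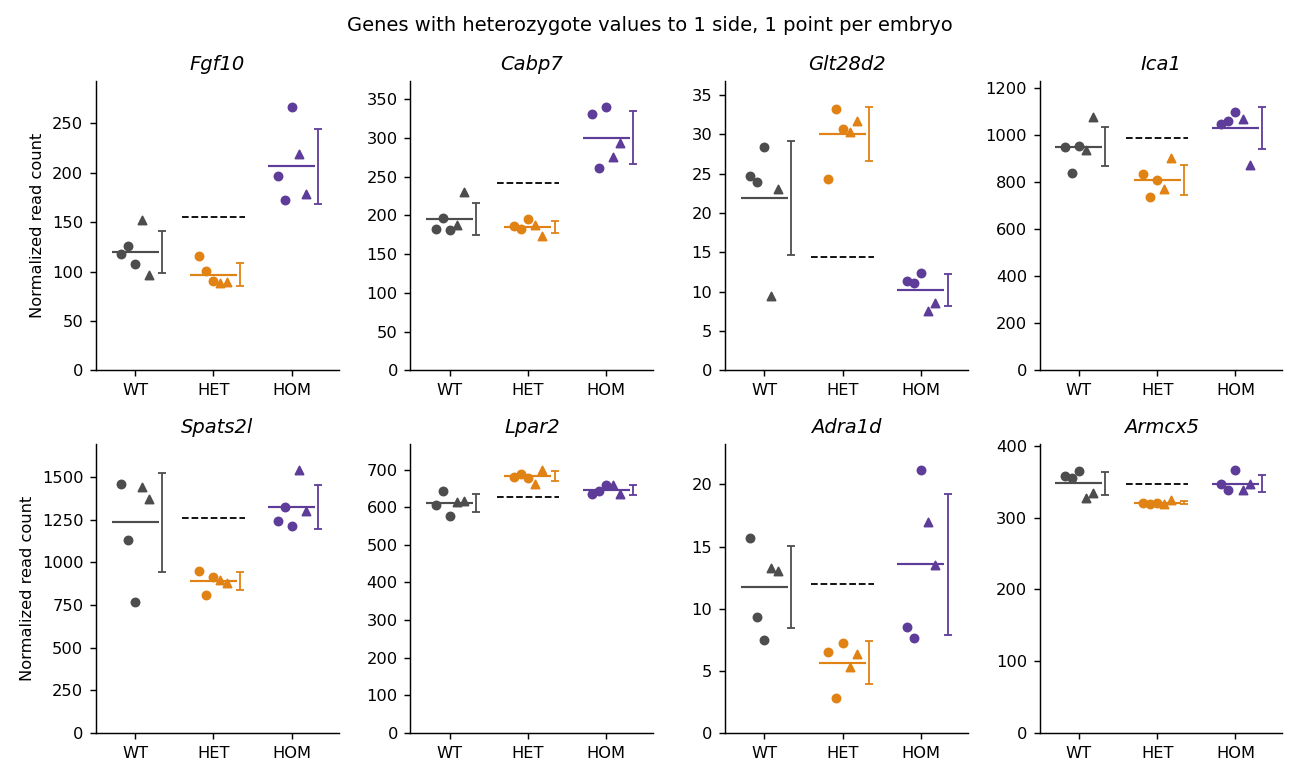
Normalized read count (y axis) by genotype of 8 genes named for their departure, with circles for females, triangles for males, lines for the mean, bars for the SD of 5 embryos, and a dashed line at the midpoint on the log2 scale. HET embryos lie on the side of WT for *Fgf10*, *Cabp7*, and *Glt28d2*, and outside both homozygous genotypes, apart from a few overlaps, for the other 5 genes.

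*Crx*, *Ilk*, *Lmbrd1*, *Lypd6*, and *Pde3b* were reported by the study as differentially expressed between heterozygous and WT embryos in the same data. By qRT-PCR the study could not establish these changes, although their directions were similar. The genes were thus selected for the HET minus WT difference, which is not orthogonal to the departure, and their positions are a description. None of these 5 departed past correction, with adjusted p = 0.993 by limma for each. *Pde3b*, a cyclic nucleotide phosphodiesterase gene, was the sole one of these 5 in a dominant position. Its normalized read counts were 739, 938, 790, 1056, and 745 in WT, 486, 684, 716, 621, and 666 in HET, and 650, 637, 631, 610, and 632 in HOM embryos, so that all HET and HOM embryos lay below all WT embryos. The position was 1.02 (interval 0.54 to 1.96), but the adjusted p between HOM and WT embryos was 0.487 by limma, and *Pde3b* is therefore not among the 21 genes. *Lmbrd1*, of lysosomal cobalamin export, was 1831 ± 88.0 (SD, n = 5) in WT, 1571 ± 72.7 in HET, and 1630 ± 82.7 in HOM embryos, with a position of 1.31. *Ilk*, which encodes integrin-linked kinase, was 2332 ± 105 (SD, n = 5) in WT, 2622 ± 110 in HET, and 2475 ± 84.2 in HOM embryos, a departure of 0.13 (standard error 0.04). *Crx*, a homeobox gene of the pineal gland and retina, had 10.4, 40.5, 43.8, 8.29, and 7.31 in HET embryos, against 2.33 to 7.38 in WT and 6.70 to 11.9 in HOM embryos. HET replicates 2 and 3 carried the departure of 1.19 (standard error 0.40) of *Crx*. *Lypd6* is described above with an additive position.

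The cortical pathways around *Tbr1* held few departures. Of the 15 genes of the reelin pathway, 10 lay above and 5 below the midpoint (median 0.03, beside 49.9% of all genes above), and *Reln* was the sole member with an unadjusted p under 0.05. Of 34 genes of the Wnt pathway, 18 lay above the midpoint (median 0.02), and *Wnt7b* was the sole member under 0.05. Among 13 markers of layer 6 corticothalamic neurons, 8 lay above (median 0.13), with *Tle4*, a corepressor gene, at 0.19 (standard error 0.06). Among 12 markers of Cajal-Retzius cells, 6 lay above and 6 below the midpoint (median -0.004, range -0.48 to 0.52), and *Reln*, *Trp73*, and *Ndnf*, all above, were under 0.05. Without HET replicate 2 all 12 lay above it (median 0.15). *Trp73*, a p53 family gene, had means of 384, 423, and 250 in WT, HET, and HOM embryos, and *Ndnf*, a secreted neurotrophic factor gene, had 478, 484, and 235. *Ccbe1*, a secreted matrix gene that is not among the Cajal-Retzius markers, had means of 380, 418, and 170. It belongs to a list of 26 brain extracellular matrix genes, of which 13 lay above and 13 below the midpoint (median -0.02). None of the 13 T-box and partner genes tested was under 0.05, and their median departure was 0.00.

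Some gene groups lay almost wholly on one side of the midpoint by small amounts. All 28 cell-cycle genes lay above it, with a median of 0.16, and 1 of them, the spindle checkpoint gene *Bub1b* at 0.37 (standard error 0.17), had an unadjusted p under 0.05. Of 86 cytosolic ribosomal protein genes, 85 lay above, with a median of 0.04. Of 27 genes of presynaptic release, 25 lay below, with a median of -0.07, as did 20 of 24 glutamate receptor genes (median -0.10), 11 of 14 GABA-A receptor genes (median -0.07), and 23 of 28 synaptic adhesion genes (median -0.05). Members of a group vary together between embryos and are not independent. The mean log2 value of the cell-cycle genes was 9.97 to 10.4 in HET embryos, 9.59 to 10.3 in WT, and 9.56 to 10.2 in HOM embryos, with overlap between all genotypes, and the lowest values were those of WT replicates 4 and 5 and HOM replicate 2. With this score as a covariate, 38 of the 86 ribosomal protein genes lay above the midpoint (median -0.002) and 7 of the 27 presynaptic genes did (median -0.014). The same covariate gave medians of -0.0081 for the glutamate receptor, 0.012 for the GABA-A receptor, and -0.0095 for the synaptic adhesion genes. Since all 28 genes of the score lay above the midpoint, the covariate itself departs from it. Fitting it takes a departure out of any list that varies with the score, and what moved these lists was not tested. None of the members of these groups passed adjustment over all genes. Single embryos weighed on the medians. The cell-cycle median was 0.095 without HOM replicate 2. The presynaptic and glutamate receptor medians were both -0.04 without HET replicate 2, and -0.12 and -0.17 without HET replicate 1.

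Genes of tissues around the cortex varied most. All 13 meningeal fibroblast genes lay above the midpoint (median 0.48) and 11 of 13 choroid plexus genes did (median 0.45), with no member at an unadjusted p under 0.05. Summed normalized read counts of the meningeal genes ranged from 2283 to 46942 in WT, 8668 to 30669 in HET, and 2142 to 36274 in HOM embryos. Of 30 Hox genes, which mark hindbrain and spinal cord, 14 were tested and 12 lay below the midpoint, and their sums ran from 4.80 to 3274 in WT, 0 to 3913 in HET, and 4.08 to 575 in HOM embryos. With Hox and meningeal scores as covariates in the fit, no gene passed adjustment and *Reln*, *Wnt7b*, and *Samd3* had departures of 0.17, 0.36, and 1.31. The part of these tissues in the departures of other genes was not tested further.

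**Figure D5:**
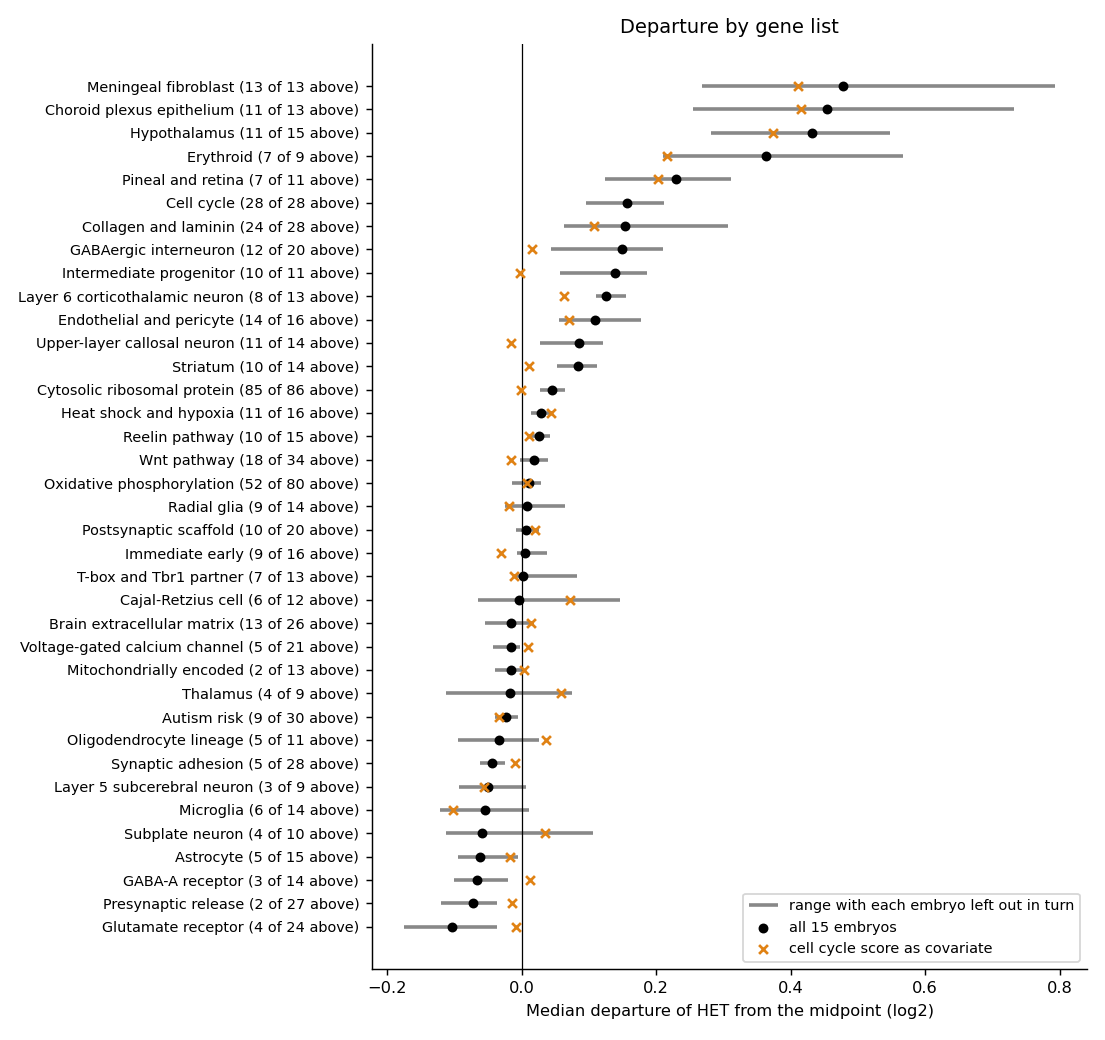
Median departure of HET embryos from the midpoint on the log2 scale (x axis) for each gene list, with the number of members above the midpoint, the range when each embryo is left out in turn (gray bars), and the value with the cell-cycle score as a covariate (crosses, not drawn for the cell-cycle list that makes up the score); the Hox list is left off for its scale. The ribosomal protein median of 0.04 is -0.002 with that covariate, whose own genes all lay above the midpoint.

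The departure did not differ detectably between male and female embryos. In the limma fit with cell means of genotype and sex, 0 genes (0%) passed adjustment, with a smallest adjusted p of 0.912, and 698 genes had an unadjusted p under 0.05. With 2 males per genotype this comparison was imprecise. The brains carried the cortical marker *Neurod6* in every embryo, with 3502 to 11277 normalized reads. Estimated depth was 26.3 to 38.1 M (mega) reads, and counting error was large relative to the value for genes with counts near 10, such as *Adra1d* and *Crx*.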

How the data were processed

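RNA-Seq was performed on 15 mouse embryos (E16.5), 5 per genotype, grouped by genotype labels. According to the methods and the submitters' processing notes, the authors estimated transcript abundance with Salmon 0.11.2 (GC bias correction) on GRCm38, imported it with tximport, and normalized it with DESeq2 1.22.2 in R 3.5.3. The authors deposited normalized read counts, a signal per gene and embryo that is not whole. The library kit does not mark strand, so that overlapping genes cannot be told apart.

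Values were transformed to log2(value + 1), and genes averaging 5 or more (16507) were fitted over all embryos with limma 3.58.1 (lmFit, eBayes with trend) in R 4.3.3. P-values were adjusted by Benjamini-Hochberg (threshold 0.05), and Fieller intervals used the moderated variance. Of 19475 identifiers, 19452 had a symbol. The fit was tested on simulated data. Normalized counts summed to 30.5 to 31.8 M per embryo (M, mega), and embryos of a genotype correlated with r from 0.971 to 0.988.

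Named genes were *Tbr1*, the 8 genes on each side with the smallest p of the departure, all genes called between HOM and WT or HET and HOM embryos, up to 4 genes per direction with HET values outside all others, *Crx*, *Ilk*, *Lmbrd1*, *Lypd6*, and *Pde3b*, and up to 3 members per list. Members and lists were chosen with earlier results of these data known. Sequences are from GENCODE M21 and RefSeq (GRCm38.p6). Alternatives covered the pseudocount, filter, rescaling, scale, covariates, replicate block, variance model, empirical null, and leaving out each embryo.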

Additional observations from a re-analysis of the deposited data

Results flagged for a closer look

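Of 108 groups of 5 embryos examined for 36 named genes, 9 held an embryo far from the others by Dixon's criterion, and chance marks about 1 group in 20. WT replicate 4 had 9.44 normalized reads of *Glt28d2*, with the next WT value at 23.0. WT replicate 5 had 1883 for *Rbm14*, with the next at 2318. HOM replicate 5 had 873 for *Ica1*, with the next at 1048, and 2623 for *Ilk*, with the next at 2459. HOM replicate 1 had 33.8 for *Tcp11*, with the next at 80.4. HOM replicate 3 had 1531 for *Flrt3*, with the next at 1298, and 397 for *Trmt9b*, with the next at 333. HET replicate 3 had 38.6 for *P2rx5*, with the next at 28.0. HOM replicate 2 had 2474 for *Prex1*, with the next at 2773.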

How the results depend on the processing

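The count of genes with a departure past the threshold was 0 under every alternative with all embryos, and with embryos left out in turn it was 0 to 1, where the 1 gene was *Spats2l* without WT replicate 3. The empirical null raised the genes called between HOM and WT embryos from 21 to 42 and the departures at an unadjusted p under 0.05 from 376 to 683. Without single embryos the counts were 12 to 22 between HOM and WT embryos, 6 to 17 between HET and HOM embryos, 3 to 18 for HET values outside all others, and 0 to 1 for departures that differ by sex. The counts between HOM and WT embryos that moved by over 1.5 times came without WT replicate 1 or HOM replicate 3 (12 each) and WT replicate 2 or HOM replicate 4 (13 each), and between HET and HOM embryos when any HET or HOM embryo was left out (6 to 8). Values outside all others became more frequent when any WT or HET embryo (5 to 18) or HOM replicate 3 (5) was left out, and the gene that differed by sex appeared without WT replicate 5, HET replicate 1, HET replicate 4, or HOM replicate 3. The recessive count among the 21 genes stayed between 11 and 15, and the count on the WT side between 18 and 20, apart from a filter at a mean of 50, which left 17 of the 21 genes, 13 of them recessive and 15 on the WT side. A replicate block left 2 genes instead of 13 between HET and HOM embryos. The numbers mark sex, and whether they also mark a shared litter is not given. Same-numbered embryos correlated with r from -0.23 to 0.51 (over 0.1 in 8 of 15 pairs). In 11 of 30 comparisons an embryo matched best with its own number. Of 1036 single-gene values under alternatives 1023 kept their sign, and the 13 that changed belonged to *Tbr1* (10) and *Gcg* (3), both near 0. List medians changed sign in 66 of 1102 values. The causes were not tested.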

Other observations

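Pineal and hypothalamic genes lay above the midpoint in part. *Tph1*, which encodes the tryptophan hydroxylase of serotonin synthesis in the pineal gland, had a departure of 1.73 (standard error 0.59; unadjusted p under 0.05), and 7 of 11 pineal and retinal genes lay above the midpoint. *Tph1* had low counts of 6.08, 55.1, 40.4, 11.2, and 8.95 in HET, 1.69 to 14.2 in WT, and 1.96 to 18.6 in HOM embryos. HET replicates 2 and 3, which also carried the departure of *Crx*, were the sole HET embryos above all WT and HOM embryos. Of 15 hypothalamic genes, 11 lay above, with a median of 0.43, and *Mc4r* was the sole member with an unadjusted p under 0.05. Of 9 erythroid genes tested, 7 lay above (median 0.36), and the summed normalized reads of the erythroid list ran from 30356 to 83344 in HET, 28925 to 73624 in WT, and 28848 to 57264 in HOM embryos.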
